A study of Mus musculus with 50 samples.

Results

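Cartilage is built on a network of collagen fibrils that holds large aggregates of the proteoglycan aggrecan, bound by link protein to strands of hyaluronan, and smaller adaptor proteins tie the aggregates and fibrils together. The transcription factor SOX9 starts the cartilage programme, SOX5 and SOX6 act with it on genes such as Acan, and the surfaces of joints and tendons carry lubricin, the product of Prg4. Several of these genes are also used by tendon, ligament, bone and skin, so none of them marks cartilage alone in a mixed tissue.

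The 10 genes described here are Sox9, Sox5, Sox6, Acan, Hapln1, Comp, Matn1, Matn3, Chad and Prg4. They were taken as a named list of cartilage and joint genes by a rule that does not use their measured values. Earlier results of these data were known when the list was chosen. All 10 genes were found among the 21954 genes of the tables. The 10 genes were followed in RNA-seq of the wound bed of 41 mouse digits, in which part of the distal phalanx (P3), the bone of the digit tip, had been removed from young adult male C57Bl/6 mice. The 29 non-regenerative (NR) digits carried labelled amputation levels of 60% to 80% of P3, with 17 of them above 67%, and were collected at 0, 3, 6, 12 and 24 h and 3, 14 and 21 d (3 digits each) and at 7 d (5 digits). The 12 intermediate (Int) digits, labelled Medium with levels of 41% to 55%, were collected at 0 h, 24 h, 14 d and 21 d (3 digits each). No digit was genetically altered or treated apart from the amputation, and each digit is a mixture of the cell types around the wound. The series also holds 9 libraries of macrophages grown from bone marrow of young female C57Bl/6 mice, which entered no test.

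Both hindlimbs of a mouse were operated on, and the labels do not say which digits share a mouse, so p-values measure the spread between digits, some of which may come from 1 animal. Replicate numbers only name the digits. The libraries held between 1468749 and 13011782 counts. The profiles of 3 digits stood apart from the rest: NR 14 d replicate 2, NR 7 d replicate 2 and NR 3 h replicate 3 had median Spearman correlations with the other digits of 0.634, 0.687 and 0.812, while every other digit was above 0.85. Calls that changed without them are given both ways. In 5 pairs of digits the labels carry the same animal mark, date and side, and the sources used here do not say whether marks were reused. The pairs are NR 14 d replicate 3 with Int 14 d replicate 1, NR 0 h replicate 1 with NR 12 h replicate 3, Int 0 h replicates 2 and 3 with NR 12 h replicates 1 and 2, and NR 3 d replicate 3 with NR 7 d replicate 1. The dates in the labels fall into 2 ranges, called collection periods here, though the labels do not say what the dates record. All NR digits at 3 h and 12 h and all Int digits at 21 d carry dates of the earlier period. All NR digits at 21 d carry dates of the later one. In a bulk sample, fewer cells of a type and less RNA per cell cannot be told apart.

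Levels are given as normalized TPM, a measure per transcript length that the authors scaled between libraries. Over all genes they summed to 3362791 in NR 14 d replicate 2 and 1434851 in NR 7 d replicate 2, and to at most 1136073 in every other digit. Levels and marker sums of these 2 digits are therefore scaled up beside the rest. Over the 41 digits the mean level ran from 327 for Prg4 and 129 for Comp through 33.3 for Chad, 28.4 for Acan and 24.2 for Sox9 to 4.11 for Sox6, 2.83 for Hapln1, 1.63 for Sox5, 1.13 for Matn3 and 0.0547 for Matn1. Prg4 lay above 97.9% of all genes and Matn1 above 21.2%. Neighbours in this order overlapped widely between digits: Acan ranged from 0.486 to 163 and Chad from 0 to 118. A gene was called where the edgeR quasi-likelihood test gave a Benjamini-Hochberg adjusted p-value under 0.05 over all genes tested together with a more than 2-fold change. Tests of several coefficients at once, and the test of the amputation level, used the adjusted p-value alone.

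**Figure D1:**
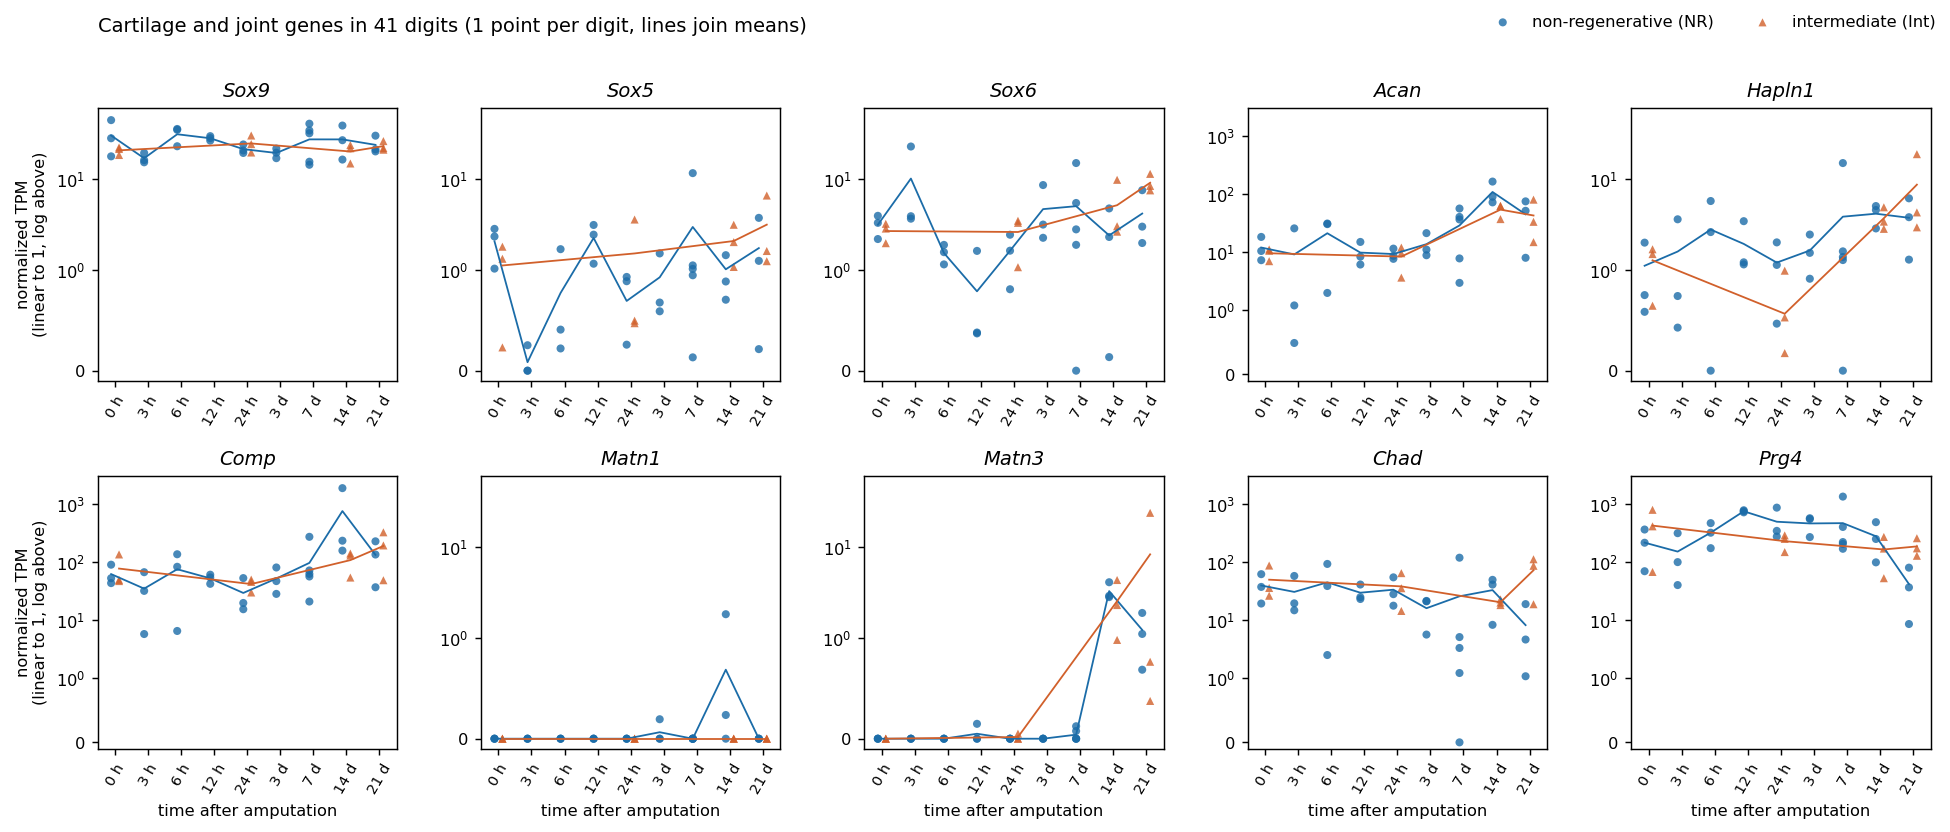
Normalized TPM (linear to 1, logarithmic above) of each of the 10 genes against time after amputation, with 1 point per digit (blue circles NR, orange triangles Int) and lines joining the means of each time. Matn3 is at or next to 0 until 7 d and above 0 in all 12 digits at 14 and 21 d, and Sox9 stays between 14.3 and 44.3 throughout. Within each group Acan is higher at 14 d than before. In NR digits the mean of Comp is highest at 14 d and that of Prg4 lowest at 21 d, with overlap between digits of different times.

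Of the 3 transcription factors, Sox9 did not follow the matrix genes, and no comparison with all its digits called Sox5 or Sox6. Without the digits that stand apart Sox6 was called as rising late, as given further on. Sox9 (chromosome 11, 112782224 to 112787760, + strand, GRCm38 here and below) had between 79 and 986.99 expected counts in every digit. It measured 28, 17.7 and 44.3 in the NR digits at 0 h, 16.3, 38.6 and 26.6 at 14 d and 29.9, 20.1 and 21.1 at 21 d. In the Int digits it measured 21.3, 22.2 and 18.3 at 0 h, 23.6, 21.7 and 14.8 at 14 d and 26.0, 20.9 and 21.8 at 21 d. These ranges overlap at every time, and Sox9 was called in none of the 20 comparisons with all their digits. Its difference between late and early NR digits, by a contrast defined further on, was -0.02 ± 0.19 (SE) on the log2 scale, with no stable sign across alternatives.

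Sox6 (chromosome 7, 115470872 to 116038796, - strand) had its lowest NR group mean at 12 h, in a change that did not pass the test. Its levels at 12 h were 0.378, 1.61 and 0.369 in the NR digits, against 3.28, 2.18 and 3.92 at 0 h, so that the groups did not overlap. The log2 change was -1.49 ± 0.61 at 12 h (edgeR adjusted p = 0.1227) and -0.96 ± 0.32 at 24 h (adjusted p = 0.0773). The Int digits at 21 d measured 8.37, 7.47 and 11.3, the highest group mean of the Int digits, against 1.96, 2.84 and 3.20 at 0 h, although the change of counts was only 0.62 ± 0.29 (adjusted p = 0.3262). Level and count did not always go together for Sox6: NR 3 h replicate 3 had a level of 22.7 from 43 counts in a library of 1468749, and NR 3 h replicate 2 a level of 3.88 from 43 counts in one of 2848956. Why they differ was not tested.

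Sox5 (chromosome 6, 143828425 to 144781977, - strand) was the least abundant of the 3, with 0 to 146.54 expected counts a digit. Its exons overlap those of an antisense RNA, Sox5os1, and the strand setting of the counting is not given in the sources used here. It measured 0.252, 0 and 0 in the NR digits at 3 h and 2.82, 1.03 and 2.32 at 0 h, and no comparison called it. The highest level, 11.6, was in NR 7 d replicate 2, a digit that stands apart, while the other 4 digits of that time lay between 0.132 and 1.116.

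Acan encodes aggrecan (chromosome 7, 79053483 to 79115099, + strand). Its level in NR digits was 18.1, 10.4 and 7.19 at 0 h and 7.58, 11.4 and 8.57 at 24 h. At 7 d it spread over 2.92, 7.71, 36.2, 55.8 and 40.0, at 14 d it stood at 89.0, 163 and 71.3, and at 21 d at 51.0, 7.90 and 74.2. By level the 3 digits at 14 d lay above every NR digit up to 7 d, whereas 1 digit at 21 d fell back into the range of 0 h. The level of 163, in NR 14 d replicate 2, came from 1462 counts, against 2091 and 2097 in the other digits at 14 d. In Int digits the level was 10.4, 6.91 and 11 at 0 h, 9.44, 3.60 and 11.8 at 24 h, 36.7, 61.5 and 62.1 at 14 d and 32.9, 14.7 and 79.4 at 21 d. The Int digits at 14 and 21 d lay above all Int digits at 0 and 24 h.

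Acan rose in the Int digits at 14 d against 0 h by 2.45 ± 0.27 (SE) on the log2 scale (edgeR adjusted p = 0.0051, n = 3 and 3), in a comparison that called 1.68% of 13334 genes tested. Left out in turn, 1 of the 6 digits, Int 0 h replicate 2, took the adjusted p to 0.0566. In 1 fit of all 41 digits with the collection period as a term the change was of like size, 2.41 ± 0.93, but was not called (adjusted p = 0.6804), in a comparison that called 0.433% of genes. At 21 d the change was 2.17 ± 0.46 (adjusted p = 0.0501), where 1.39% of genes were called. Against NR 0 h the change at 14 d was 2.78 ± 0.57 (adjusted p = 0.2226) with 0% of genes called. Without NR 14 d replicate 2 it was 2.65 ± 0.44 (adjusted p = 0.0364), with 1.92% of genes called.

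Hapln1, the link protein gene (chromosome 13, 89539796 to 89611652, + strand), encodes the protein that locks aggrecan onto hyaluronan. In Int digits it measured 0.643, 1.68 and 1.49 at 0 h, 0.174, 0.528 and 0.990 at 24 h, 3.38, 4.86 and 2.82 at 14 d and 4.27, 2.93 and 18.7 at 21 d. The 6 late Int digits lay above the 6 early ones. The log2 change of counts was 1.55 ± 0.44 at 14 d (edgeR adjusted p = 0.1508) and 2.75 ± 0.70 at 21 d (adjusted p = 0.0935). In NR digits it measured 1.99, 0.749 and 0.583 at 0 h, 5.02, 4.54 and 2.85 at 14 d and 3.78, 1.29 and 6.11 at 21 d, and the changes of 1.70 ± 0.67 and 1.81 ± 0.65 did not pass the test (adjusted p = 0.6131 and 0.5884).

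Comp encodes cartilage oligomeric matrix protein (chromosome 8, 70373558 to 70382066, + strand), a pentamer that binds collagen and is abundant in tendon as well as cartilage. It measured 89.4, 52.3 and 43.1 in NR digits at 0 h, 19.6, 15.3 and 52.5 at 24 h, 232, 1867 and 156 at 14 d and 134, 36.5 and 226 at 21 d. The value of 1867 is in NR 14 d replicate 2, which stands apart, and is the highest of all 41 digits. The other 2 digits at 14 d still lay above every NR digit up to 24 h. In Int digits Comp measured 49.0, 46.7 and 134 at 0 h, 53.7, 139 and 129 at 14 d and 192, 48.3 and 323 at 21 d, with overlap between the times. Fitted on the 2 groups alone, Comp was called at no time against 0 h. Its log2 change at 14 d in NR digits was 3.11 ± 0.90 (edgeR adjusted p = 0.3862), and without replicate 2 it was 1.62 ± 0.35 (0.0820). In 1 fit of all 41 digits with the collection period it was called, at 3.28 ± 0.92 (0.0295), as were 5.59% of genes.

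The 2 matrilins, adaptor proteins between collagen fibrils and aggrecan, differed from each other. Matn3 (chromosome 12, 8947929 to 8972028, + strand) had 0 counts in 25 of the 29 digits collected up to 7 d and at most 2 counts in the other 4. At 14 and 21 d it had between 7 and 176 counts in all 12 digits. Its level in NR digits was 4.08, 2.89 and 2.80 at 14 d and 1.10, 0.683 and 1.88 at 21 d, and in Int digits 0.978, 4.32 and 2.29 at 14 d and 0.762, 0.374 and 23.7 at 21 d. Every digit at 14 and 21 d was above every earlier digit of either group. Of 19254 genes above 0 in at least 1 digit, 4 had this pattern (0.0208%): Matn3, Col8a2, Megf6 and Timp2, of which the last 3 were chosen after their values were seen.

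Since all digits at 0 h had 0 counts of Matn3, fold changes are lower bounds, set against 3 counts in the smallest 0 h library of the group. With so few early counts, Matn3 could enter a test against earlier times only through its late digits. Only a rise could therefore be called. Matn3 was at least 7.71-fold higher at 14 d and at least 3.51-fold higher at 21 d in NR digits. In Int digits the bounds were at least 7.24-fold at 14 d and at least 24.3-fold at 21 d. The last bound rests on Int 21 d replicate 3, and the lowest digit of that time was at least 1.14-fold above the floor. The gene was called in Int digits at 14 d (edgeR adjusted p = 0.0422), a call that was lost when any of 5 of the 6 digits was left out (adjusted p up to 0.1981). It was not called at 14 d or 21 d in NR digits (adjusted p = 0.2046 and 0.1198), and without NR 14 d replicate 2 it was called at 14 d (adjusted p = 0.0372). In 1 fit of all 41 digits with the collection period it was called in NR digits at 14 d (0.0113) and in Int digits at 21 d (0.0364), where 0.167% of genes were, but not in Int digits at 14 d (0.0594).

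Matn1, the matrilin gene typical of hyaline cartilage (chromosome 4, 130944385 to 130955475, + strand), was at 0 counts in 38 of 41 digits. NR 14 d replicates 2 and 3 had 7 and 3 counts and NR 3 d replicate 2 had 2, so that no test covered it. A count of 0 allows up to 3 counts in a library. Its RNA was therefore not detectable at this depth in most digits, and no direction can be read from 3 digits with so few counts.

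The 250 bases before the start sites of Acan, Matn3 and Matn1 are shown because the first pair rose late and the third stayed near 0. They are RefSeq start sites on GRCm38.p6, all on the + strand, at chr7:79052976-79053225, chr12:8947679-8947928 and chr4:130944135-130944384. Of the 10 genes, 7 had a promoter in the table used, and the windows of Sox5, Sox6, Chad and Hapln1 are not shown.
Acan: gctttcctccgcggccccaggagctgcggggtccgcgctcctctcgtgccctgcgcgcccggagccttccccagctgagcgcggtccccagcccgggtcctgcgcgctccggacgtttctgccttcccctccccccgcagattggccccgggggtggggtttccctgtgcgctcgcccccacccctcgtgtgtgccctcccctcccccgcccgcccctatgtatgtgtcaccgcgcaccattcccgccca
Matn3: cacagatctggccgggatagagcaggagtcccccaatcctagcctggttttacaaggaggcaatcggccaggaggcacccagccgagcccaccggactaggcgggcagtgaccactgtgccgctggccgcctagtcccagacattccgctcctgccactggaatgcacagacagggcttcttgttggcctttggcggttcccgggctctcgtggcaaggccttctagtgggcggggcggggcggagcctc
Matn1: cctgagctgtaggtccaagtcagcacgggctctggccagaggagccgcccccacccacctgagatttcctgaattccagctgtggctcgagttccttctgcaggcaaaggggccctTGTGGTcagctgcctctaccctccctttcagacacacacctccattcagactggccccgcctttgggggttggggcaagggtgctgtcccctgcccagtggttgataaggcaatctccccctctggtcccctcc
The core letters ACAAT bound by SOX proteins and TGTGGT bound by RUNX proteins were searched on both strands, and capitals mark the matches. They do not overlap each other. Neither motif is in the windows of Acan and Matn3, and Matn1 holds 1 match to TGTGGT, 134 bases before its start. Over 32851 promoter windows of this length, 27.7% hold ACAAT and 14% hold TGTGGT on either strand. Among the windows not shown, that of Hapln1 holds 1 match to each motif, 249 and 160 bases before its start site. This window lies inside the gene and overlaps an exon of Hapln1. The window of Sox5 holds 1 match to ACAAT and that of Chad neither motif. Sox6 has several windows, with 0 to 3 matches to ACAAT and 0 or 1 to TGTGGT, where 1.3% of all windows hold 3 or more of ACAAT.

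Chad encodes chondroadherin (chromosome 11, 94565047 to 94569127, + strand), a leucine-rich protein that binds collagen and cell surfaces. It did not share the late rise. In NR digits it measured 61.4, 37.0 and 19.1 at 0 h, 1.21, 0, 3.28, 118 and 5.06 at 7 d, 40.6, 49.0 and 8.21 at 14 d and 18.7, 1.068 and 4.59 at 21 d. All 3 digits at 21 d lay below all 3 at 0 h, with a log2 change of -2.26 ± 0.87 (edgeR adjusted p = 0.6248). In Int digits it measured 26.1, 35.5 and 86.4 at 0 h, 19.9, 22.6 and 18 at 14 d and 85.6, 18.6 and 111 at 21 d.

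Prg4 encodes lubricin (chromosome 1, 150449412 to 150466165, - strand). It was the most abundant of the 10 genes and reached its highest group mean at 12 h in NR digits, where all 3 digits were close together at 747, 776 and 714. At 0 h they had measured 361, 69.0 and 214, at 24 h 273, 342 and 861, at 14 d 248, 98.1 and 484 and at 21 d 79.5, 8.49 and 36.3. The 12 h digits lay above all 0 h digits, and 2 of the 3 digits at 21 d lay below all of them. The log2 change from 0 h was 1.66 ± 0.50 at 12 h (edgeR adjusted p = 0.0511), where 11.4% of genes were called, and -2.30 ± 0.84 at 21 d (adjusted p = 0.5884), where 0.452% were. Leaving out 1 digit at a time gave 12 h changes from 1.23 to 2.35 (edgeR adjusted p from 0.0043 to 0.1471). The highest was without NR 0 h replicate 1, the only NR 0 h digit of the earlier period, to which all 12 h digits belong. Without that digit, time and period cannot be told apart. In 1 fit of all 41 digits with the collection period the change was 1.18 ± 0.79 and was not called (adjusted p = 0.5509).

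In Int digits Prg4 measured 67.0, 410 and 789 at 0 h, 148, 249 and 286 at 24 h, 52.3, 269 and 170 at 14 d and 171, 127 and 256 at 21 d, with overlap at every time. The last exons of Prg4 share 204 bases with those of Tpr on the other strand, which is a widely expressed gene, so a part of the counts of each may belong to the other.

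Against 0 h, the other NR times called none of the 10 genes: 0% of all genes were called at 3 h, 4.85% at 6 h, 10.7% at 24 h, 0.723% at 3 d and 0.0537% at 7 d. Over the 8 NR comparisons with 0 h no member was called by edgeR, with up to 5 members a comparison at an unadjusted p under 0.05, and DESeq2 called 1 at 12 h (Prg4), 3 at 14 d (Acan, Comp and Matn3) and 1 at 21 d (Matn3). DESeq2 called 15%, 2.6% and 1.84% of all genes at these times. In Int digits at 24 h no member was called by edgeR or DESeq2, none had an unadjusted p under 0.05, and 0.0152% of all genes were called.

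**Figure D2:**
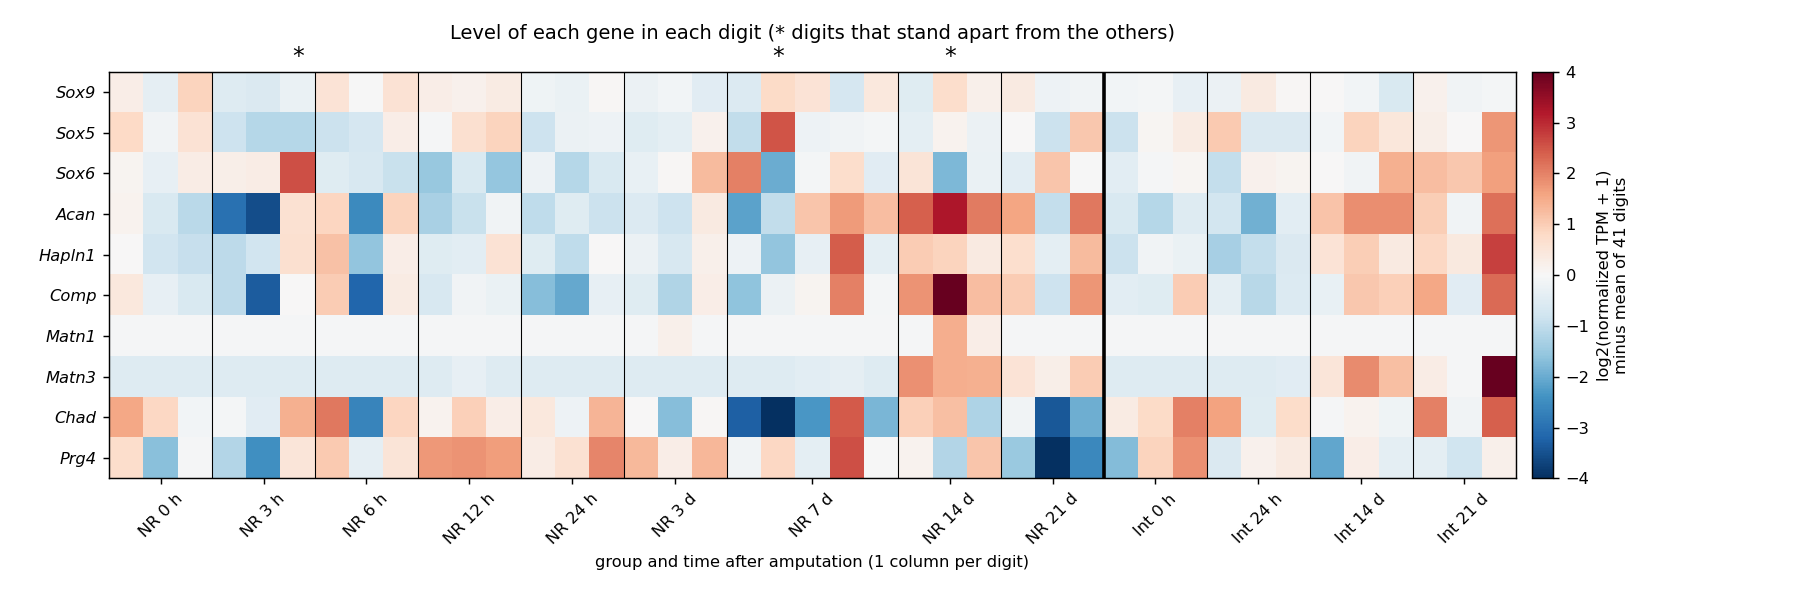
Level of each gene (rows) in each digit (columns, ordered by group and time), as log2(normalized TPM + 1) minus the gene's mean over the 41 digits. Red marks digits above the mean, and stars mark the 3 digits that stand apart. Acan, Hapln1, Comp and Matn3 are mostly red at 14 and 21 d in both groups, Chad and Prg4 are blue in NR digits at 21 d, and Chad, Comp, Hapln1 and Prg4 are red together in NR 7 d replicate 4.

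Tested over all 9 NR times at once, 2 of the 9 members tested changed over time: Matn3 (edgeR F test, adjusted p = 7.50e-04) and Comp (adjusted p = 0.0201), where 7.62% of 14434 genes were called. The values for Prg4 and Acan were 0.0778 and 0.1408. Matn3 could enter this test only through its digits at 14 and 21 d, since its earlier counts were next to 0. The call of Comp rests on NR 14 d replicate 2. Without the 3 digits that stand apart the calls were Matn3 (adjusted p = 7.10e-04), Acan (0.0083), Prg4 (0.0109) and Sox6 (0.0151), Comp stood at 0.1707, and 22.4% of all genes were called. With the collection period as a further term Matn3 (0.0015) and Comp (0.0469) were called, as were 6.66% of all genes.

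To give the direction, the mean of 7, 14 and 21 d was set against the mean of 3, 6, 12 and 24 h, with each time weighted equally. This called 8.37% of genes tested, 5.96% higher and 2.41% lower at the late times. Of the members, 3 of 9 rose and none fell. For Matn3, with at most 2 counts in any NR digit up to 7 d, only a rise could be called. Acan rose by 1.85 ± 0.51 (SE) on the log2 scale (edgeR adjusted p = 0.0148), Comp by 2.03 ± 0.48 (adjusted p = 0.0051) and Matn3 with an adjusted p of 0.0017. The median difference over the 9 members, Matn3 among them, was 0.99, beside 0.09 over all genes tested. Hapln1 differed by 1.0 ± 0.64 (adjusted p = 0.3130), Sox5 by 0.99 ± 0.61 (0.2972), Chad by -1.0 ± 0.68 (0.3514) and Prg4 by -1.13 ± 0.42 (0.0754).

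Without the 3 digits that stand apart these genes were called again, with Sox6 added. Acan rose by 2.74 ± 0.48 (edgeR adjusted p = 2.09e-04), Matn3 had an adjusted p of 0.0013, Comp rose by 1.83 ± 0.48 (0.0071) and Sox6 by 1.0 ± 0.27 (adjusted p = 0.0085), and 9.57% of genes were called. Among those not called, Hapln1 differed by 1.54 ± 0.58 (adjusted p = 0.0547), Sox5 by 0.21 ± 0.48 (0.8005), Chad by -0.71 ± 0.67 (0.4804) and Prg4 by -0.61 ± 0.40 (0.2882). Leaving out NR 7 d replicate 4, in which Acan, Hapln1, Comp, Chad and Prg4 were at their highest for that time, added falls of Chad and of Prg4 (-1.44, adjusted p = 0.0129). With the collection period as a further term Acan (2.02 ± 0.58, adjusted p = 0.0286), Comp (2.39 ± 0.58, 0.0091) and Matn3 (0.0048) were called, as were 6.26% of all genes. Within the earlier period the median level of Acan was 7.92 over 10 early and 55.8 over 3 late NR digits, and within the later period 21.1 over 2 early and 45.5 over 8 late ones. For Comp these medians were 47.2 and 232, and 48.8 and 103. Tested within 1 period, over the times it holds, neither Acan nor Comp nor Matn3 was called. In the earlier period Acan differed by 2.27 ± 0.83 (edgeR adjusted p = 0.0980) and Comp by 1.97 ± 0.72 (0.0968), and in the later period by 1.16 ± 0.71 and 2.28 ± 0.82 (adjusted p = 1.0 for both). The earlier digits called Sox6 alone (1.43 ± 0.43, adjusted p = 0.0456) among 6.68% of genes, and the later digits no member among 0.013%. In the earlier digits Sox9 differed by -0.64 ± 0.18 (edgeR adjusted p = 0.0293), which is under the 2-fold threshold. With the period as a term over all NR digits its difference was -0.37 ± 0.22 (0.3457). The time course called Sox9 alone in the earlier digits (0.0402) among 10.4% of genes, and no member in the later digits among 0.00651%.

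**Figure D3:**
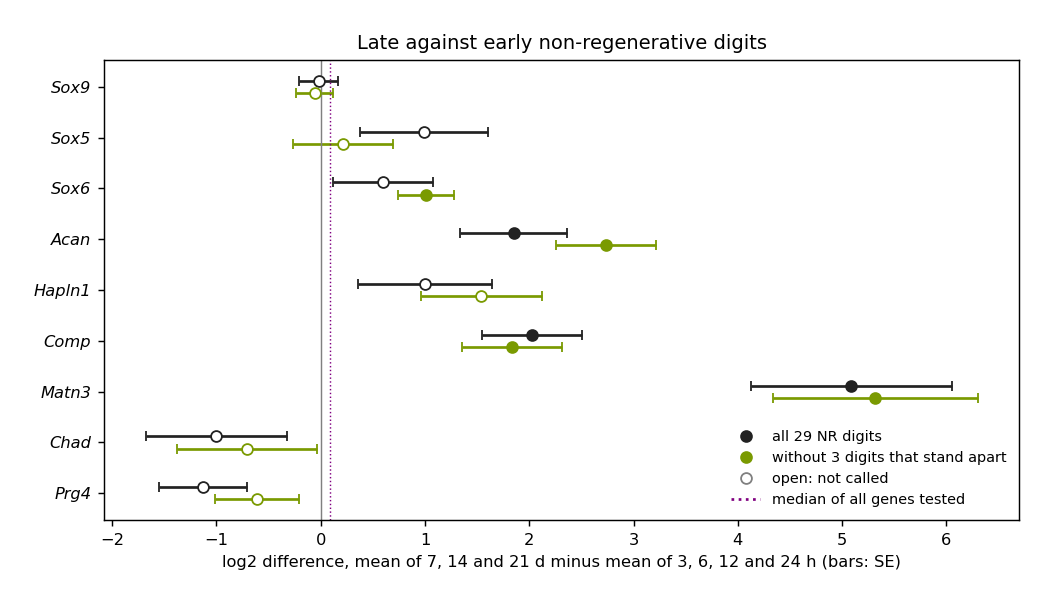
Log2 difference between late (7, 14 and 21 d) and early (3, 6, 12 and 24 h) NR digits for the 9 genes tested, with bars of 1 SE, for all 29 digits (black) and without the 3 that stand apart (green). Filled points were called, and the dotted line is the median of all genes tested (0.09). Acan, Comp and Matn3 are filled in both, and the size for Matn3 depends on the fit, since its early counts were next to 0.

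The comparison of Int with NR digits at the same time asks whether removing less of the phalanx went with a different level of these genes. No member was called at 0 h, 24 h, 14 d or 21 d, where 0%, 0%, 0% and 0.648% of all genes were called by edgeR. Unadjusted p-values under 0.05 were found for Prg4 at 24 h, Comp at 14 d and Chad and Prg4 at 21 d, and DESeq2 called no member at any of the 4 times. The intervals were wide: at 21 d the Int minus NR difference was 3.07 ± 0.96 for Chad (adjusted p = 0.2065), 1.75 ± 0.66 for Prg4 (0.2908), 2.63 ± 1.36 for Matn3 (0.4306) and 0.11 ± 0.75 for Acan (0.9636). Without Int 21 d replicate 3 the sign turned for Matn3 (-1.17) and Acan (-0.66), and with the collection period in 1 fit it turned for Acan (-0.22). For Prg4 at 21 d the Int digits (171, 127 and 256) lay above the NR digits (79.5, 8.49 and 36.3), and for Chad the lowest Int digit (18.6) was just below the highest NR digit (18.7). The 21 d groups come from different collection periods, which cannot be told apart from the amputation group there.

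At 14 d the Int minus NR difference was -2.37 ± 0.91 for Comp (edgeR adjusted p = 0.8620) and -0.68 ± 0.50 for Acan (0.8851). Without NR 14 d replicate 2, the digit with the highest Comp level, the difference for Comp was -0.83 ± 0.41 (edgeR adjusted p = 1.0). Without the 14 d digits that share a label, NR replicate 3 and Int replicate 1, again 0 members were called at 14 d. Over the 4 shared times together, no member was called by edgeR or DESeq2, none had an unadjusted p under 0.05, and 0% of 14768 genes were called. The differences ran from -0.33 ± 0.29 for Acan to 1.24 ± 0.79 for Matn3, which was -0.39 without Int 21 d replicate 3. The time course did not pass a test of a difference between the groups for any member (adjusted p from 0.6597 for Comp, Chad and Prg4 to 0.9582 for Acan), with Chad alone at an unadjusted p under 0.05, no member called by DESeq2, and 0% of genes called. The amputation level within group and time called 0% of genes and no member by either tool, with no member at an unadjusted p under 0.05. Its largest member differences were 0.50 ± 0.33 for Prg4 and 0.48 ± 0.38 for both Acan and Comp per 10 percentage points of P3. Without the 3 digits that stand apart those of Acan and Comp were 0.02 ± 0.35 and 0.05 ± 0.38.

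**Figure D4:**
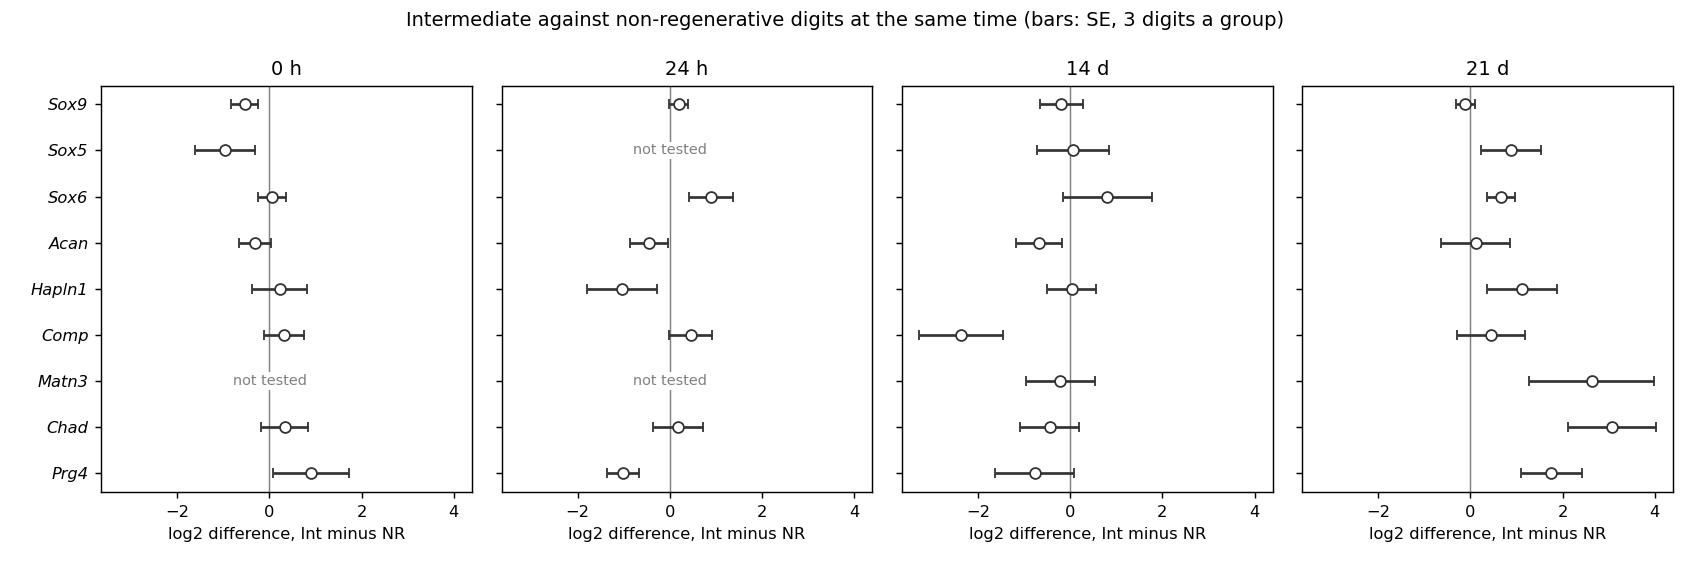
Log2 difference of Int minus NR digits at 0 h, 24 h, 14 d and 21 d for each gene, with bars of 1 SE and 3 digits a group. All points are open since none was called, and the widest departures from 0 are Comp at 14 d (-2.37, and -0.83 without NR 14 d replicate 2) and Chad (3.07) and Matn3 (2.63, and -1.17 without Int 21 d replicate 3) at 21 d.

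The members fell into sets by how they moved over the 41 digits, given here as Spearman's rho with no test, since the digits share times and libraries. Acan, Comp, Hapln1 and Matn3 went together, with rho of 0.87 for Acan and Comp, 0.79 for Acan and Hapln1, 0.79 for Comp and Hapln1 and 0.71 for Acan and Matn3. Without the digits that stand apart the first stayed at 0.87 over 38 digits. Sox9 was not with them, at 0.10 with Acan, 0.16 with Comp and 0.00 with Matn3, and Sox9 and Sox6 ran against each other (-0.52). Sox5 was at 0.51 with Comp and 0.37 with Acan, and at 0.57 and 0.46 without the digits that stand apart. When each digit was set against the mean of its own group and time, Chad joined the set, at 0.80 with Comp, 0.74 with Acan and 0.71 with Hapln1, although over all digits it was at 0.47, 0.27 and 0.41. On this measure Matn3 was less close to the set, at 0.40 with Acan and 0.36 with Comp, and Prg4 was closer than over all digits, at 0.61 with Hapln1 and 0.56 with Comp. Digits of 1 group and time thus differed in several matrix genes at once: in NR 6 h replicate 2 Acan measured 1.96, Comp 6.44, Chad 2.48 and Hapln1 0, while the other 2 digits measured 30.1 and 30.8 for Acan and 135 and 82.3 for Comp.

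**Figure D5:**
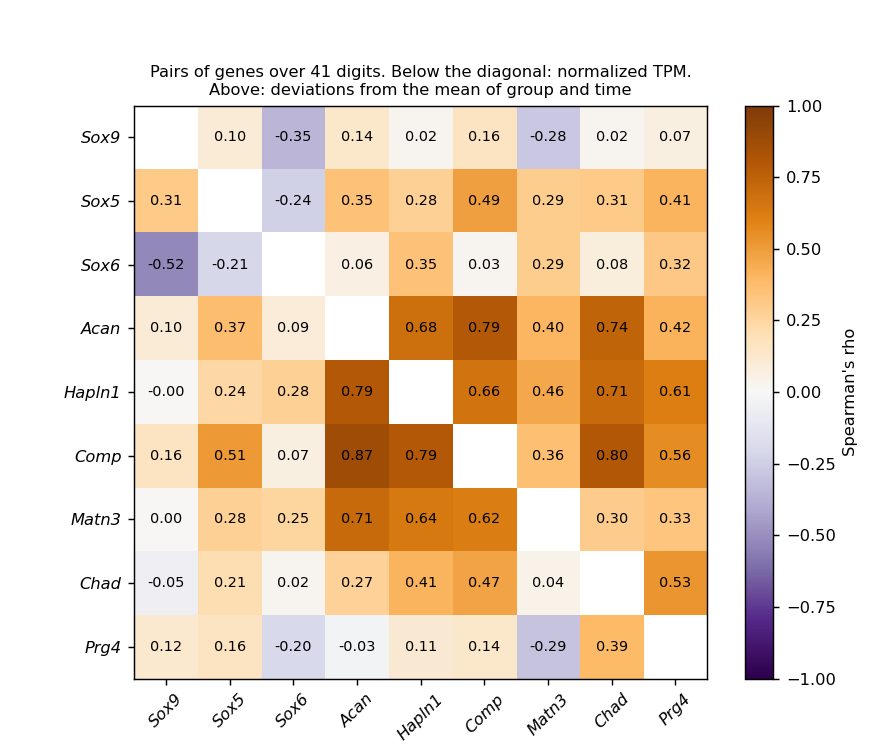
Spearman's rho for each pair of 9 genes over 41 digits, below the diagonal for normalized TPM and above it for deviations from the mean of group and time. Acan, Hapln1 and Comp are correlated in both (0.79 to 0.87 below, 0.66 to 0.79 above), Chad joins them above the diagonal, and Sox9 and Sox6 are negative in both.

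The genes whose levels were most like each member's are given by Spearman's rho over the 41 digits. For Acan they were Comp (0.87), Col11a1, a fibril collagen gene (0.82), and Fmod, a tendon and cartilage proteoglycan gene (0.81). For Comp they were Acan, Cilp, a cartilage intermediate layer protein gene (0.82), and Fn1, the fibronectin gene (0.81). For Hapln1 they were Slc2a10 (0.83), Xylt1, which starts glycosaminoglycan chains (0.80), and Lum (0.80), and for Matn3 Fzd1 (0.83), Timp2 (0.82) and Cxxc5 (0.82). Chad was most like Cytl1 (0.76), Mfi2 (0.75) and Col10a1, the collagen gene of hypertrophic cartilage (0.69). Prg4 was most like Htra4 (0.72), Serpina3n (0.71) and Gda (0.70). The nearest genes were Leng1 (0.71) and Ifrd1 (0.70) for Sox9, Pcmtd2 (0.81), Fbxl20 (0.79) and Mllt3 (0.78) for Sox6, and Trib2 (0.62), Zfp933 (0.59) and Gimap8 (0.58) for Sox5.

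Of 67 related genes in fixed lists, 58 were tested in the late against early NR comparison, and 14 rose and 7 fell, with a median of 0.42. Among other cartilage matrix genes, 2 of 10 tested rose: Col11a1 by 3.91 ± 0.48 (edgeR adjusted p = 2.52e-06) and Matn4, the matrilin gene of broader use, by 2.53 ± 0.47 (5.15e-04). None of the 7 tested chondrocyte markers was called there, and the defining collagen gene Col2a1 had a median level of 5.96 over 41 digits. In the hypertrophic list 3 of 9 rose, among them Pth1r by 2.28 ± 0.58 (0.0086), and Col10a1 fell, with a difference of -3.34 ± 0.75 (0.0031). In the joint list 2 of 11 rose and 2 fell, Wnt9a rising by 2.76 ± 0.55 (0.0011) and Cd44, a hyaluronan receptor gene, falling by 1.45 on the log2 scale. In the list of cartilage matrix-cleaving enzymes 2 of 9 rose and 3 fell, with falls of the aggrecanase genes Adamts4 (-1.58 ± 0.31) and Adamts1 (-2.36 ± 0.35) and of Mmp3 (-2.43 ± 0.51) and a rise of Htra1 (1.80 ± 0.23). Mmp13 changed over the NR times (adjusted p = 0.0475) without a late minus early difference that passed (-0.24 ± 0.69). In the tendon list 4 of 8 rose, among them Scx (adjusted p = 3.00e-04), Fmod (2.55 ± 0.31) and Thbs4 (2.25 ± 0.26), and Egr1 fell. Of 10 genes of glycosaminoglycan synthesis 1 rose, and of 2 tested relatives of aggrecan and link protein none was called. In Int digits at 14 d against 0 h, 8 of 55 related genes tested rose and none fell. Of the 7 tested in the list of other cartilage matrix genes, Col11a1 (4.3 ± 0.44, edgeR adjusted p = 0.0045) and Col11a2 (2.58 ± 0.31, 0.0077) rose. Col2a1 was not called there (-0.69, adjusted p = 0.8332), and the median of these 7 was -0.63.

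Some markers of other cell types moved with the late rise of Acan, Comp and Matn3. In the late against early comparison 4 of 6 tenocyte, 2 of 8 osteoblast (Ibsp and Col1a1), 3 of 5 osteoclast and 3 of 7 fibroblast markers tested rose (Lum, Col1a2 and Col3a1 of the last), and Bglap (-0.44 ± 0.92) and Dmp1 (-1.11 ± 0.68) did not pass. The summed level of 6 tenocyte markers ran from 57.7 to 244 in NR digits up to 3 d and from 240 to 1336 at 7 d, 762 to 1269 at 14 d and 306 to 923 at 21 d, where at 14 d none of the 6 was at 0 in every digit. That of 8 osteoblast markers ran from 43.8 to 1366 up to 3 d and from 1281 to 3369 at 7 d, 3606 to 10650.0 at 14 d and 1222 to 3036 at 21 d, and in Int digits from 205 to 583 at 0 and 24 h and from 2044 to 6445 at 14 and 21 d. Such sums follow the most abundant genes. Over the 41 digits the mean level was 1480 for Col1a1 and 15.3 for Alpl, so the osteoblast sum does not show a rise of the list as a whole. The 7 fibroblast markers ran from 625 to 4888 up to 3 d and from 3430 to 21540.0 at 7 d, 12970.0 to 23910.0 at 14 d and 6526 to 15280.0 at 21 d in NR digits. The 7 osteoclast markers ran from 29.3 to 257 up to 3 d, 539 to 923 at 14 d and 173 to 356 at 21 d. The 8 chondrocyte markers found ran from 13.5 to 94.6 up to 3 d and from 8.91 to 114 at 7 d in NR digits. At 14 d they ran from 39.2 to 353 and at 21 d from 14.4 to 110 in these digits. In Int digits they ran from 27.8 to 59.9 at 0 h, 19.6 to 29.3 at 24 h and 114 to 156 at 14 d. At 21 d the Int digits ran from 43.8 to 955, with overlap with 0 h. The part of these cell types in the results was not tested.

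Int 21 d replicate 3 differed from the rest in genes of hyaline cartilage. Its Col2a1 level was 555, against at most 104 in any other digit, its Col9a1 level 43.7 against at most 2.99, and its Lect1 level 16.6. It also held the highest level of Matn3 (23.7) and of Hapln1 (18.7) among the 41 digits. Its Sox9 level was 21.8, within the range of the other Int digits, and its Matn1 count was 0. Without it, the other 2 Int digits at 21 d measured 0.762 and 0.374 for Matn3 and 4.27 and 2.93 for Hapln1.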

How the data were processed

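RNA was read from mixed cells of the wound bed of 41 digits and from 9 macrophage libraries (M0, M1 and M2, 3 each). The macrophages came from bone marrow of young female mice. M1 cells were given IFN-gamma and LPS, M2 cells IL-4, and M0 cells none of these. The authors aligned single-end poly(A) reads with Bowtie to Ensembl genes of mm10 (GRCm38) and deposited expected counts from RSEM 1.2.3, and a second table in which TPM was scaled between libraries by median-by-ratio, a normalized signal. For 26 genes, names that a spreadsheet had turned into dates were restored. Groups, times and levels came from the sample labels, and the collection periods from their dates, whose meaning the labels do not give.

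Here expected counts were rounded and tested with edgeR 4.0.16 (R 4.3.3; quasi-likelihood, filterByExpr, TMM), each pairwise fit on its 2 groups alone (15 comparisons, and 5 fits over several groups). Called means an adjusted p-value (Benjamini-Hochberg over all genes tested) under 0.05 with group means of normalized counts, each plus 1, that differed over 2-fold in a pairwise comparison. The late against early and group terms used the fitted coefficient, and tests of several coefficients and of the level used the adjusted p-value alone. Floors are 3 counts of a library and cover counting error only. The study's own test, EBSeq, was not used. Promoters came from RefSeq, positions from GENCODE vM21, both on GRCm38. Alternatives were DESeq2 1.42.0, its size factors in edgeR, no low-count filter, no fold threshold, 1 fit of all digits, the period as a term, and leaving out digits. Scripts were tested on simulated data.

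The members and gene lists were chosen with earlier results of these data known. Named genes are all members, up to 4 genes of each related list called over the NR times with the smallest adjusted p-values and over 4-fold between time means, the 3 genes with the highest Spearman's rho for each member with a mean level of at least 1, and listed markers. Macrophages entered no test. Macrophage TPM were not used here. For Sox9, 1 of the 3 genes with the highest rho is not reported here.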

Additional observations from a re-analysis of the deposited data

Results flagged for a closer look

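Among the 5 NR digits at 7 d, 1 digit lay far from the other 4 for 5 of the genes. Replicate 4 held the high value for Hapln1 (14.93 normalized TPM), Comp (270.4), Chad (118.0) and Prg4 (1334), and replicate 2, which stands apart over all genes, held it for Sox5 (11.56). Chance alone flags about 1 in 20 such groups, and the genes of 1 digit are not independent.

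The NR and Int digits moved in opposite directions from the mean of their own 0 h digits in 2 cases, in every digit. For Sox9 at 21 d the mean difference was -6.315 normalized TPM in NR and 2.331 in Int digits. For Prg4 at 24 h it was 277.5 in NR and -194.6 in Int digits. The Int digits at 0 h ran from 67.04 to 789.4, on both sides of those at 24 h (147.5 to 286.3). How many such cases chance alone would give was not worked out. The test of the interaction over the 4 shared times did not call either gene (edgeR adjusted p = 0.8649 and 0.6597), and the difference at the single time was not tested.

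In the macrophage libraries, which enter no comparison, Comp had a median of 2.44 CPM (counts scaled by library total) in M2, from 59 to 64 counts, against 8 to 15 counts in M0 and 5 to 12 in M1.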

How the results depend on the processing

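Of 151 signed member differences, set against 947 values under alternatives other than leaving out 1 digit, 46 of the values had the other sign, none of them for a difference that was called. Among those printed in the report, Sox9 late against early was 0.15 with DESeq2 or its size factors, 0.02 with no low-count filter and 0.03 in the later period, Chad and Prg4 late against early were 0.41 and 0.01 in the earlier period, and Acan Int against NR at 21 d was -0.22 with the period. Of the counts of members called, 118 stayed within 1.5 times of the reported count and 24 did not when a setting other than 1 digit was changed. With DESeq2 the counts were 1 for NR at 12 h, 3 at 14 d and 1 at 21 d, 4 for Int at 14 d, 2 at 21 d and 4 for the NR time course. Over all genes tested, DESeq2 called 4406 of 14434 in the NR time course. It called 507 of 13334 for Int at 14 d and 413 of 13360 at 21 d. With no low-count filter the member counts were 1 for NR at 12 h and 3 for Int at 21 d, and the share of all genes is not given here. With all 41 digits in 1 fit, with or without the period, the member counts were 2 for NR at 14 d, 0 for Int at 14 d and 1 at 21 d. With the period, 5.59%, 0.433% and 0.167% of all genes were called in these comparisons. Alternatives without the digits that stand apart were chosen after seeing the data: the counts were 2 for NR at 14 d (1 in a single fit of all groups, which also gave 1 for NR at 12 h, 1 for Int at 14 d and 1 at 21 d) and 4 for the time course. Without those digits 1.92% of all genes were called for NR at 14 d and 22.4% in the time course. The earlier period alone gave 1 and the later period alone 0, both for the time course and, in a test chosen after seeing the data, for late against early. The cause of these changes was not tested.

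Leaving out 1 digit at a time moved 15 counts. They ranged from 0 to 1 for NR at 12 h (1 without NR 0 h replicate 1 or NR 12 h replicate 2) and at 24 h (1 without NR 0 h replicate 1 or NR 24 h replicate 3), and from 0 to 2 for NR at 14 d (2 without replicate 2). For Int at 14 d they ranged from 0 to 2 (0 without Int 0 h replicate 2) and at 21 d from 0 to 2 (2 without Int 21 d replicate 2). The time course gave 1 to 4 (1 without NR 14 d replicate 2, 4 without NR 3 h replicate 3) and late against early 3 to 5 (5 without NR 7 d replicate 4). For the amputation level only the 24 digits of the shared times were left out in turn, and the other 17 were not run. Levels in normalized counts ordered the groups much like the TPM, least so for Sox5. Leaving out 1 digit gave Sox9 late against early from -0.07 to 0.07, Acan Int against NR at 21 d from -0.66 to 0.67, and Matn3 from -1.17 to 3.22 at 21 d and from -0.39 to 1.61 over 4 times. The lowest value of Acan and both of Matn3 were without Int 21 d replicate 3, and Acan was -0.38 without NR 21 d replicate 2. No paired analysis was possible because the digit labels carry no replicate numbers, and the macrophages, which do, enter no test. Dates were used as the 2 collection periods. Depth limits Matn1, Matn3 and Sox5 most.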

Other observations

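In the macrophage libraries Sox9, Prg4 and Comp had the highest counts of the 10 genes, and the other 7 had at most 17 counts a library. Sox9 had 95 to 133 counts in M0, 21 to 27 in M1 and 123 to 167.99 in M2, and Prg4 had 6.01 to 79.03 in M0, 81.05 to 107.03 in M1 and 35.03 to 49.01 in M2. These correspond to medians of 4.42, 0.968 and 5.20 CPM, counts scaled by library total, for Sox9 and 0.502, 3.55 and 1.82 for Prg4. In CPM the M1 libraries lay below all others for Sox9, whereas for Prg4 the lowest M1 library (3.21) was below the highest M0 library (3.46).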
